A study of Caenorhabditis elegans with 30 samples.

Results

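The UDP-glucuronosyltransferase family of Caenorhabditis elegans was followed through 8 RNA interference (RNAi) treatments. Members were the protein-coding genes whose WormBase symbol is ugt- followed by a number, and 67 of the 46748 genes in the count table, of which 19641 are protein coding, met this rule. The 30 RNA-seq libraries, 10 groups of 3, came from whole N2 hermaphrodites, the wild-type strain, aged 5 days. The treated groups carry the sequence names of their targets, R186.7, ZK795.1, C01A2.5 and M04C9.5 under the title prefix ZK and F25H2.5, F55H2.6, R04E5.10 and F26D12.1 under the prefix RM. Each prefix also holds 3 libraries labelled L4440, the empty RNAi feeding vector, called L4440_ZK and L4440_RM here, and each treatment was compared with the L4440 libraries of its own prefix. All groups, the L4440 libraries included, share strain, sex and age. No label states that replicate libraries were grown as separate cultures, so p-values measure the spread between these libraries, which may be technical.

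UDP-glycosyltransferases move a sugar from a UDP-linked donor onto small lipophilic molecules, which makes these more soluble and easier to export. They belong to the conjugation step of detoxification, which follows oxidation by cytochrome P450 enzymes and runs beside glutathione S-transferases, and ABC transporters then carry the conjugates out of the cell. In worms many of these enzymes act in the intestine, glucose conjugates are common products, and the natural substrates of most members are unknown.

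The targets were read first, as a check of the labels. pnn-1 in R186.7 libraries (log2 fold change -2.58), ipmk-1 in ZK795.1 (-0.625), tads-1 in C01A2.5 (-1.96), ndk-1 in F25H2.5 (-4.46) and clu-1 in F55H2.6 (-1.08) fell in their own treatments. dyf-5 was higher in the libraries labelled M04C9.5 (4.75, adjusted p = 8.03e-17) and ifd-1 was higher in the libraries labelled R04E5.10 (2.01, adjusted p = 0.000999), so both went against a knockdown. fkh-7 differed by 0.23 in the libraries labelled F26D12.1 (adjusted p = 1.0). Library totals ran from 31835911 to 44987307 counts, and replicates varied by a biological coefficient of 5.425% in ZK and 11.71% in RM libraries. The C01A2.5 libraries stood apart on the first principal component of the ZK libraries, which held 98.5% of the variance. Among RM libraries, L4440_RM replicate 3 and F26D12.1 replicate 3 lay away from the other libraries of their groups, and RM counts are therefore also given without both of them, an alternative chosen after the data were seen. In whole animals, fewer cells of a type and less RNA per cell cannot be told apart.

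Of the 67 members, 42 lie on chromosome V, 12 on IV, 5 on I, 4 on X, 3 on III and 1 on II. All 67 had counts in at least 1 library. Levels between genes were compared as counts scaled to library size (CPM) per kilobase of exon, with all 30 libraries scaled together. On this scale 12 members averaged at or above 10 over the 10 groups, 34 lay between 1 and 10, 14 between 0.1 and 1, and 7 below 0.1. The 5 highest members held 46.2% of the family's summed level and the 20 highest 80.5%, so a small set of genes makes up most of the family's RNA.

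The highest level was that of ugt-44 (WBGene00008486, WBcel235 chromosome IV, 10469741 to 10471899), at 56.96 CPM per kb. It ranged between 27.8 in M04C9.5 and 144 in C01A2.5. ugt-62 (WBGene00010904, chromosome III, 4537281 to 4540623) followed at 50.8. ugt-44 and ugt-62 changed places between groups, since the mean of ugt-44 was the higher of the pair in 6 of 10 groups and all 3 of its libraries lay above those of ugt-62 in 2. ugt-63 (34.75), ugt-22 (32.9) and ugt-58 (32.5) came next and were not separated from one another over the groups, with the mean of ugt-63 above that of ugt-22 in 4 of 10 groups and the mean of ugt-22 above that of ugt-58 in 5 of 10. All libraries of ugt-62 lay above those of ugt-63 in 10 of 10 groups. ugt-22 (WBGene00007455, chromosome IV, 13639260 to 13644567) is known in C. elegans for tolerance to the anthelmintic albendazole. ugt-25 (24.8), ugt-41 (17.2), ugt-64 (14.2), ugt-12 (11.9) and ugt-23 (11.4) completed the 10 highest, and the mean of ugt-25 was above that of ugt-41 in 10 of 10 groups, with all libraries apart in 6. ugt-58 varied little, between 28.3 in F26D12.1 and 37.6 in F55H2.6. C01A2.5 was the highest group for 46 of the 67 members and M04C9.5 the lowest for 24. The matching shares of all genes are not given. Over all genes the median log2 fold change against L4440_ZK was 0.42 in C01A2.5 and -0.003 in M04C9.5.

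**Figure D1:**
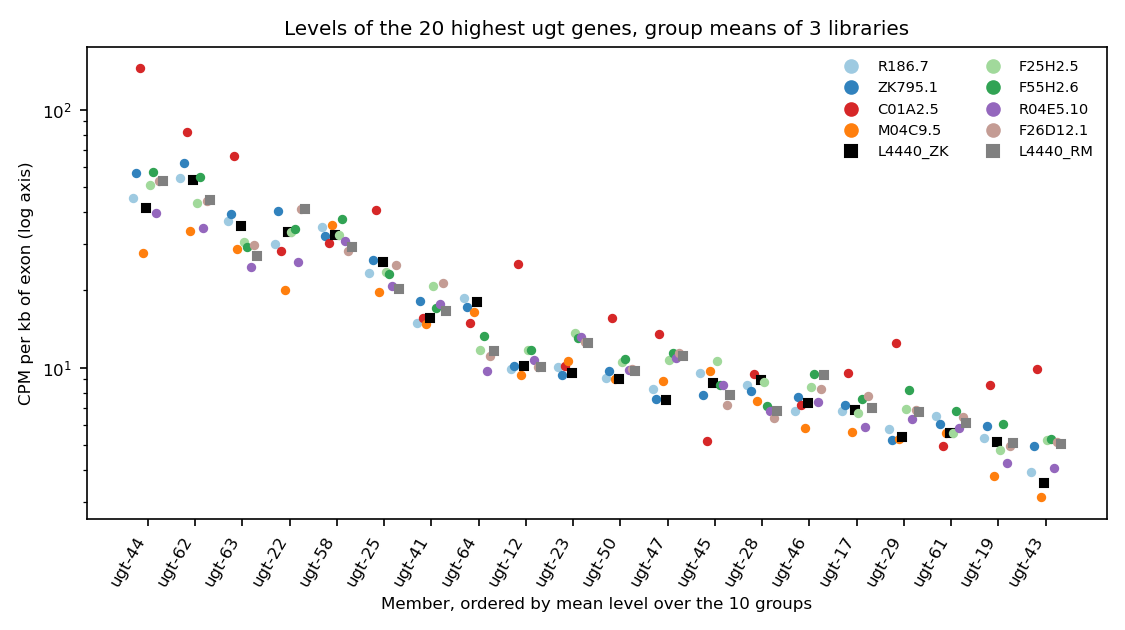
Mean level of the 20 highest ugt genes in each of the 10 groups, in CPM per kb of exon on a log axis; each point is the mean of 3 libraries, squares are L4440 groups. C01A2.5 points lie above all others for ugt-44 (144) and ugt-62 (82.1), and the M04C9.5 points are lowest for ugt-44 (27.8) and ugt-22 (20.0).

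Summed over the 67 members, the family reached 1271, 1293 and 1175 CPM in C01A2.5 libraries and 617, 632 and 628 CPM in the libraries labelled M04C9.5, against 788, 740 and 696.5 CPM in L4440_ZK. Every C01A2.5 library was above and every M04C9.5 library below the 3 controls. As a plain share of counts, without scaling, members took 0.128% to 0.140% in C01A2.5 and 0.0644% to 0.0734% in L4440_ZK. ugt-44 alone made up 37.0% of the summed difference in C01A2.5, with ugt-62 (9.58%) and ugt-63 (9.31%) next. In M04C9.5 the summed difference of -116 CPM was mostly ugt-62 (28.9%), ugt-22 (26.1%) and ugt-44 (22.0%). In R04E5.10 the family summed to 622, 705 and 719 CPM, against 801, 799 and 709.5 CPM in L4440_RM, and the groups overlapped.

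Log2 fold changes were tested in every comparison for the same 60 members. The other 7, ugt-10, ugt-15, ugt-34, ugt-35, ugt-38, ugt-42 and ugt-67, had at most 17 counts in any library and did not pass the filter on low counts. A change means an adjusted p under 0.05 from edgeR's quasi-likelihood test, adjusted over all genes tested in a comparison. Of the 60 tested members 5 (ugt-7, ugt-23, ugt-30, ugt-41 and ugt-64) changed in none of the 8 treatments, 26 in 1, 20 in 2 and 9 in 3 or more. In C01A2.5 alone 24 changed. The matching counts over all genes are not given, so these are not read as a trait of the family. Of all genes 88.1% changed in C01A2.5, 19.8% in M04C9.5 and 18.9% in F55H2.6.

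**Figure D2:**
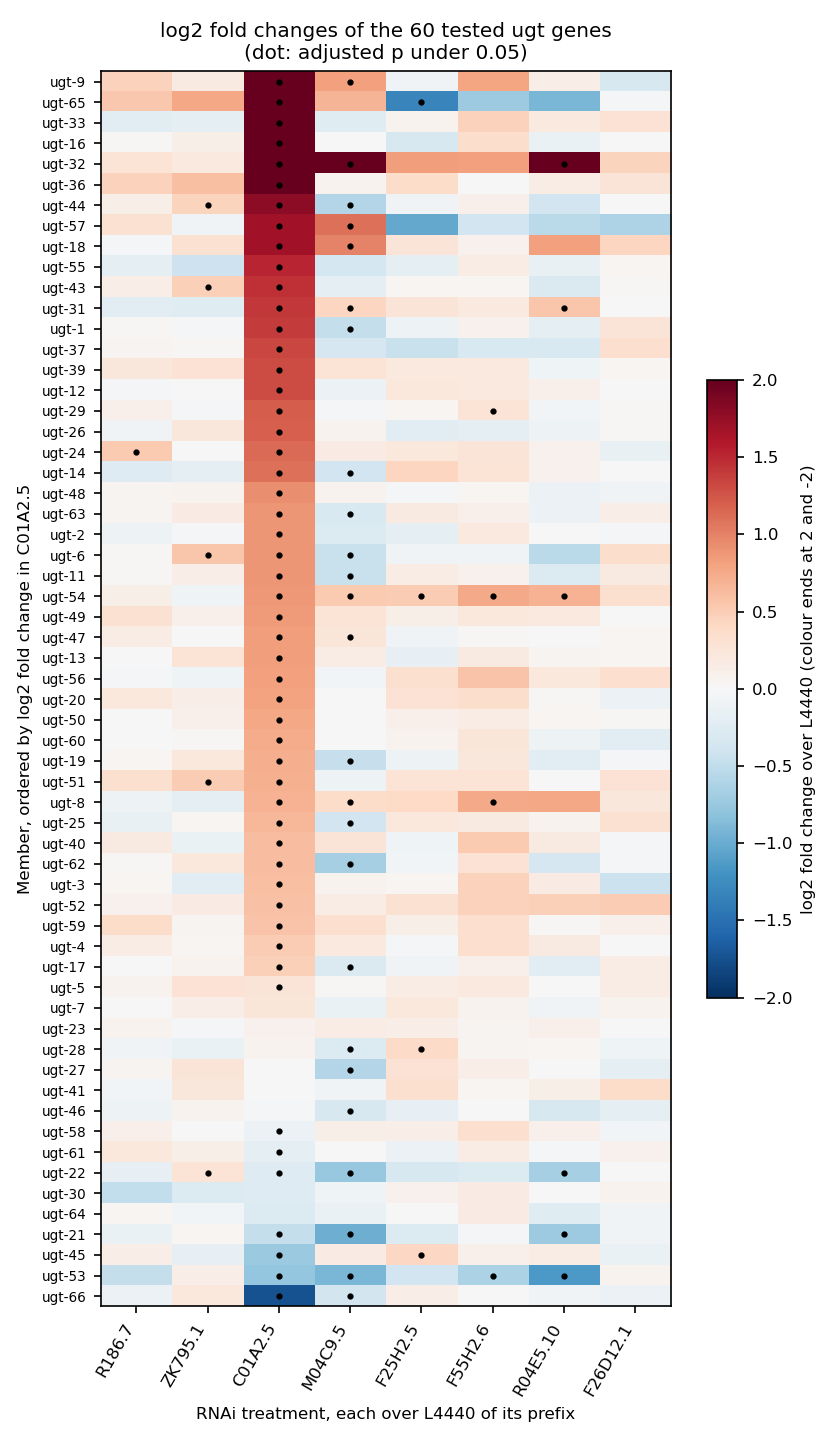
log2 fold changes of the 60 tested ugt genes (rows) in the 8 treatments (columns), each over the L4440 libraries of its prefix; red is higher and blue lower in the treatment, colours end at 2 and -2, and a dot marks an adjusted p under 0.05. The C01A2.5 column is red for most rows (45 higher, 7 lower), while ugt-22, ugt-21 and ugt-53 are blue in C01A2.5, M04C9.5 and R04E5.10.

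C01A2.5 was the treatment with the most changed members. Of 60 tested, 45 rose and 7 fell, in a comparison in which 88.1% of all genes passed the threshold, 51.7% higher and 36.4% lower. The share of members called, 86.7%, is close to that background. Members had a median log2 fold change of 0.81, against 0.42 over all genes, and 44 of 60 lay above the median of all genes. The median of all genes is itself moved by the scaling, to 0.20 with relative log expression factors and 0.66 with library totals, and the member counts were then 41 higher and 10 lower, and 51 higher and 3 lower. The shares of all genes called with these scalings are not given. Of the 52 called members 21 differed by more than 2-fold. Of the 52 calls, 47 held without each library in turn.

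The largest rise was that of ugt-9 (WBGene00020587, chromosome V, 4896048 to 4897969), a member at low level elsewhere. It had 21.9, 27.0 and 22.3 CPM in C01A2.5 libraries, against 0.357, 0.480 and 0.428 CPM in L4440_ZK. All 3 treated libraries lay far above the controls, and the log2 difference was 5.81 ± 0.15 (SE; adjusted p = 1.18e-25). With all 6 L4440 libraries as control it was 4.37, since ugt-9 was also higher in L4440_RM. ugt-65 (WBGene00008583, chromosome IV, 12420683 to 12432636) had 5.85, 6.20 and 4.96 CPM in C01A2.5, against 0.229, 0.240 and 0.143 CPM in L4440_ZK (4.80 ± 0.23, adjusted p = 1.74e-18). ugt-33 (3.36 ± 0.25) and ugt-32 (2.88 ± 0.19) were further members near or below 1 CPM in the controls that rose.

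Abundant members rose as well. ugt-44 had 274, 255 and 231 CPM in C01A2.5 libraries, against 76.1, 73.65 and 71.2 CPM in L4440_ZK. The libraries did not overlap, and the log2 fold change was 1.78 ± 0.07 (adjusted p = 9.41e-18). ugt-43, its neighbour on chromosome IV, had 19.6, 18.9 and 16.4 CPM in C01A2.5 and 6.39, 7.23 and 6.45 CPM in L4440_ZK (1.46 ± 0.09, adjusted p = 4.08e-16). ugt-16 had 30.4, 29.3 and 25.3 CPM in C01A2.5 and 3.67, 3.902 and 3.14 CPM in L4440_ZK, a 7.97-fold difference (adjusted p = 1.27e-21). ugt-12 (1.31 ± 0.07), ugt-29 (1.21 ± 0.08), ugt-63 (0.89 ± 0.06), ugt-25 (0.66 ± 0.09) and ugt-62 (0.61 ± 0.07) rose by less. ugt-41 (-0.01 ± 0.08, adjusted p = 0.936), also among the 10 highest, missed the threshold.

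**Figure D3:**
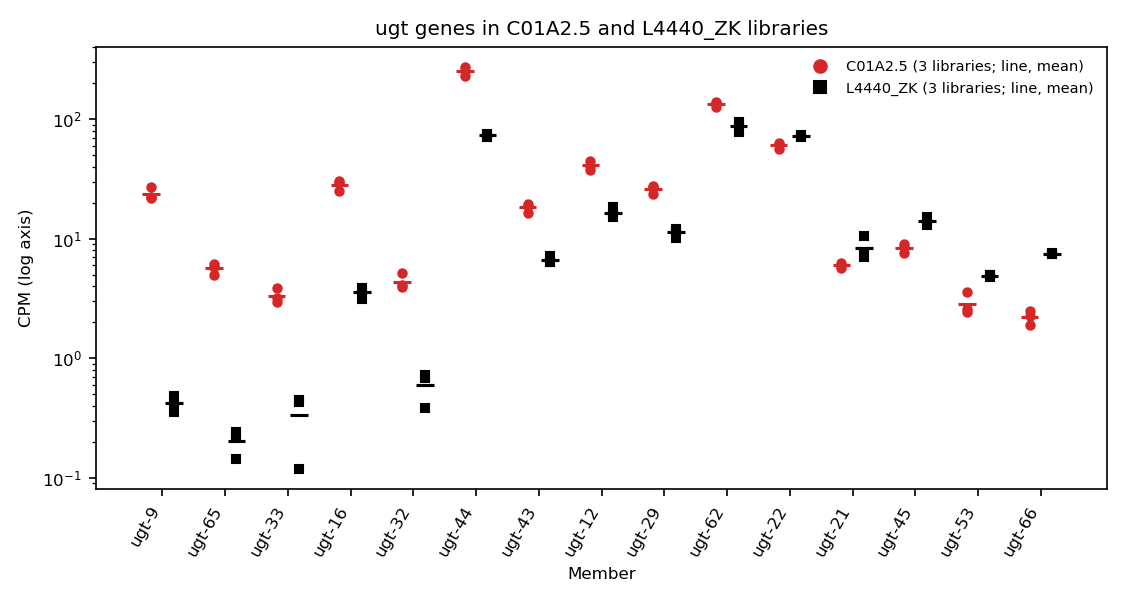
CPM on a log axis of 15 ugt genes in the 3 C01A2.5 libraries (red circles, left of each pair) and the 3 L4440_ZK libraries (black squares), with lines at the means. ugt-9 lies at 21.9 to 27.0 against 0.357 to 0.480, and ugt-66 at 1.91 to 2.51 against 7.47 to 7.59.

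The 7 members that fell in C01A2.5 were ugt-66, ugt-45, ugt-53, ugt-22, ugt-21, ugt-58 and ugt-61. ugt-66 (WBGene00016013, chromosome III, 6192116 to 6194580) had 1.91, 2.51 and 2.28 CPM in C01A2.5 libraries, against 7.51, 7.59 and 7.47 CPM in L4440_ZK (-1.75 ± 0.12, adjusted p = 6.08e-15). ugt-45 (-0.75 ± 0.08) and ugt-53 (-0.77 ± 0.14) also kept this call without each library in turn. The other falls were smaller and depended on the scaling. ugt-22 was at -0.26 ± 0.06, and at -0.02 (adjusted p = 0.771) with library totals. ugt-58 (-0.12 ± 0.05) and ugt-61 (-0.18 ± 0.08) turned positive with library totals. There ugt-58 was at 0.12 and called higher (adjusted p = 0.0402), and ugt-61 was at 0.06 (adjusted p = 0.477). The call of ugt-58 was also lost without L4440_ZK replicate 1 (adjusted p = 0.0564). ugt-61 lost its call without L4440_ZK replicate 1 (adjusted p = 0.0865), L4440_ZK replicate 2 (0.0641) or C01A2.5 replicate 2 (0.0917).

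Neighbouring members did not move by equal amounts. Chromosome V holds a run of 7 ugt genes between 4892588 and 4911399, and in C01A2.5 ugt-9 in it rose by 5.81 on the log2 scale while ugt-11 (0.875), ugt-8 (0.69), ugt-14 (1.11) and ugt-13 (0.835) rose by less, and ugt-10 and ugt-67 were too low to test. In the run ugt-18, ugt-16 and ugt-15 (12820260 to 12830114), ugt-16 rose by 2.995 and ugt-18 by 1.67, with ugt-15 too low to test. The run ugt-5, ugt-4, ugt-6 and ugt-3 (12790676 to 12800271) lay between 0.25 and 0.88, and the libraries of ugt-3 and ugt-5 overlapped the controls. The call of ugt-3 was lost without C01A2.5 replicate 1 (adjusted p = 0.214), L4440_ZK replicate 1 (0.202) or L4440_ZK replicate 2 (0.0648), and that of ugt-5 without C01A2.5 replicate 1 (0.344) or 2 (0.052) or L4440_ZK replicate 2 (0.114) or 3 (0.334). In the run on chromosome I, ugt-26 (1.20) and ugt-25 (0.66) rose, against 0.01 for ugt-27 and 0.07 for ugt-28, which missed the threshold. ugt-40 and ugt-37 on chromosome V overlap on the same strand, so reads may be split between them.

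Of 7 genes of UDP-sugar metabolism and transport 6 fell and 1 rose in C01A2.5, with a median of -1.04 against 0.42 over all genes. sqv-7, which carries nucleotide sugars into the Golgi, stood at 53.3 ± 2.22 CPM in C01A2.5 and 145 ± 3.705 CPM in L4440_ZK (SD, n = 3 each; -1.45, adjusted p = 9.7e-23). sqv-4, the UDP-glucose dehydrogenase that makes UDP-glucuronate, stood at 171 ± 6.93 CPM in C01A2.5 and 353 ± 8.03 CPM in L4440_ZK (-1.04, adjusted p = 2.84e-17). sqv-1 (-1.09), the decarboxylase that uses UDP-glucuronate to make UDP-xylose, pgm-1 (-1.04), rml-1 (-0.95) and gale-1 (-0.69) fell too, and D1005.2 rose (1.60). Among 18 regulators of detoxification and intestinal genes 10 rose and 8 fell. Those with the smallest adjusted p were xrep-4 (-0.83), pqm-1 (0.998), daf-12 (1.17) and the intestinal factor elt-2 (1.11). The aryl hydrocarbon receptor ahr-1 rose by 2.28, with 0.435 CPM in L4440_ZK when all 30 libraries were scaled together. Among the rest, elt-7, hif-1, nhr-8, nhr-48, nhr-114 and nhr-176 rose. skn-1 (-0.56), the activator of the oxidative detoxification response, fell, as did nhr-86, nhr-49, aha-1, wdr-23, mdt-15 and daf-16. Among 6 readouts of SKN-1, gst-4 (-1.34), gst-10 (-0.54) and gcs-1 (-0.27) fell, gst-12 (1.24) and sdz-8 (0.91) rose, and gst-13 was at 0.06 (adjusted p = 0.38).

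In the other detoxification families, the share of genes called in C01A2.5 was 84.8% for cytochrome P450 genes, 72.2% for glutathione S-transferases and 93.1% for efflux pumps, against 88.1% of all genes. Of 66 cytochrome P450 genes tested, 40 rose and 16 fell (median 0.61), of 36 glutathione S-transferases 19 rose and 7 fell (0.49), and of 29 efflux pumps 20 rose and 7 fell (0.94). Cell type markers moved with the same contrast, not all in 1 direction within a list. Of 6 epidermal markers 4 rose and 1 fell, while their sum was 164 to 171 CPM in C01A2.5 and 228 to 234 CPM in L4440_ZK. Of 6 muscle markers 5 rose, and they summed to 808.5 to 923 CPM and 586 to 644 CPM in the same order. Of 10 oocyte and eggshell markers 9 fell and 1 rose. Summed over 8 intestinal markers, libraries lay at 1098 to 1355 CPM in C01A2.5 and 680 to 764 CPM in L4440_ZK. The 10 oocyte and eggshell markers summed to 7180 to 7700 CPM in C01A2.5 and 15360 to 16920 CPM in L4440_ZK, and the 7 germline markers to 1009 to 1096 CPM and 2112 to 2213 CPM in the same order. The 31 msp genes, which encode major sperm protein, summed to 3117 to 3487 CPM in C01A2.5, against 2.06 to 7.33 CPM in L4440_ZK, where 5 of them had no count in any of the 3 libraries. The part of these marker shifts in the ugt values was not tested.

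The libraries labelled M04C9.5 had more members lower than higher. Of 60 tested, 8 rose and 17 fell, where 19.8% of all genes passed the threshold, 10.3% higher and 9.5% lower. The median log2 fold change was -0.022 over the members and -0.003 over all genes. In the fit of all 30 libraries 4 members rose and 5 fell, and the share of all genes called in that fit is not given. All 25 called members had their treated libraries wholly on one side of the controls, and the matching share of all called genes is not given. With library totals the split was 14 higher and 10 lower, and the median of all genes was 0.078, against -0.003 in the fit reported. Of the 25 calls, 12 held without each library in turn, and those of ugt-21, ugt-22, ugt-31, ugt-32, ugt-44, ugt-53, ugt-54 and ugt-62 held in every alternative run.

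Of the 5 most abundant members, 4 fell. ugt-22 had 42.7, 42.0 and 44.1 CPM in M04C9.5 libraries, against 74.6, 70.5 and 72.1 CPM in L4440_ZK. The spread within each group was small beside the gap, and the log2 difference was -0.75 ± 0.06 (adjusted p = 1.03e-11). ugt-62 had 51.65, 56.55 and 57.2 CPM in M04C9.5 and 94.45, 89.8 and 78.8 CPM in L4440_ZK (-0.67 ± 0.07, adjusted p = 8.44e-08). ugt-44 had 49.7, 47.1 and 49.7 CPM in M04C9.5 and 76.1, 73.65 and 71.2 CPM in L4440_ZK (-0.59 ± 0.07, adjusted p = 7.68e-07). ugt-63 fell by less (-0.305 ± 0.06, adjusted p = 0.000492), and with all 6 L4440 libraries as control it was at -0.12 (adjusted p = 0.572). ugt-58, the remaining gene of the 5, was at 0.11 ± 0.05 (adjusted p = 0.128). Lower members that fell included ugt-21 (-0.97 ± 0.13), ugt-53 (-0.91 ± 0.14), ugt-19 (-0.455 ± 0.09) and ugt-46 (-0.32 ± 0.07).

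Among the members that rose in M04C9.5, ugt-32 (WBGene00018543, chromosome V, 3841794 to 3844007) changed most, with 2.46, 2.73 and 2.73 CPM in M04C9.5 and 0.382, 0.720 and 0.690 CPM in L4440_ZK (2.15 ± 0.20, adjusted p = 1.25e-09). ugt-54 (WBGene00012013, chromosome IV, 10761698 to 10764415) had 9.83, 8.74 and 7.96 CPM in M04C9.5 and 6.98, 6.12 and 5.38 CPM in L4440_ZK (0.52 ± 0.10, adjusted p = 0.00033). ugt-31 rose by 0.43 ± 0.10, and ugt-47 (0.245 ± 0.07) and ugt-8 (0.37 ± 0.13) passed the threshold by little. The call of ugt-47 was lost without M04C9.5 replicate 1 (adjusted p = 0.0623) or 3 (0.0697) or L4440_ZK replicate 2 (0.0679) or 3 (0.123). That of ugt-8 was lost without M04C9.5 replicate 2 (0.338) or L4440_ZK replicate 1 (0.0528), 2 (0.106) or 3 (0.159). ugt-9 (0.82), ugt-18 (0.99) and ugt-57 (1.10), with control levels under 1 CPM, also passed the threshold. With all 6 L4440 libraries as control the direction turned for ugt-9 (-0.617), ugt-57 (-0.321) and ugt-47 (-0.06), and none of these 3 passed the threshold. ugt-9 lost its call without M04C9.5 replicate 1 or 3 or L4440_ZK replicate 1 or 3, ugt-18 without M04C9.5 replicate 1, and ugt-57 without M04C9.5 replicate 1 or L4440_ZK replicate 3.

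Of 36 glutathione S-transferases tested in the same libraries, 12 fell and 1 rose (36.1% called, against 19.8% of all genes). gst-4, a standard readout of the transcription factor SKN-1, stood at 6.43 ± 0.545 CPM in M04C9.5 and 13.2 ± 0.295 CPM in L4440_ZK (SD, n = 3 each; -1.03, adjusted p = 2.85e-10), and gst-10 (-0.64) and gst-13 (-0.49) fell with it. The rest of the 6 readouts of SKN-1, gcs-1 (0.011), gst-12 (0.007) and sdz-8 (-0.295), missed the threshold, as did skn-1 (-0.13, adjusted p = 0.0809). Of 29 efflux pump genes 5 fell, among them pgp-1 (-0.70), and 3 rose, among them pgp-13 (1.19, adjusted p = 0.000615). Of 5 flavin monooxygenase genes 3 rose and 2 fell, with fmo-2 at 3.325 (adjusted p = 7.12e-20) and fmo-3 at -0.998 (adjusted p = 7.92e-12). Of 66 cytochrome P450 genes 11 rose and 15 fell. Muscle markers, 4 of 6 called lower, summed to 459 to 512.5 CPM in M04C9.5 and 586 to 644 CPM in L4440_ZK, and 5 of 10 oocyte and eggshell markers were lower. Whether these bear on the ugt values was not tested.

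R04E5.10 libraries gave 6 called members of 60, 3 higher and 3 lower, where 2.28% of all genes passed the threshold, 1.56% higher and 0.715% lower. The members' median was -0.002, and that of all genes 0.002. ugt-22 had 58.2, 59.8 and 61.3 CPM in R04E5.10 libraries, against 99.02, 102 and 83.0 CPM in L4440_RM (-0.67 ± 0.10, adjusted p = 0.00259). ugt-53 (WBGene00020182, chromosome V, 2849343 to 2852028) had 3.22, 2.72 and 2.79 CPM in R04E5.10 and 7.26, 7.11 and 5.00 CPM in L4440_RM (-1.15 ± 0.18, adjusted p = 0.00377). For both genes the treated libraries were below all controls, and the calls held in every alternative run. ugt-21 (WBGene00007885, chromosome IV, 9500311 to 9502574) had 5.01, 5.21 and 6.12 CPM in R04E5.10 and 7.79, 9.37 and 9.99 CPM in L4440_RM (-0.73 ± 0.14, adjusted p = 0.0112), and its call was lost without R04E5.10 replicate 1 (adjusted p = 0.053) or L4440_RM replicate 3 (adjusted p = 0.0579).

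The 3 members that rose in R04E5.10 were ugt-54, ugt-31 and ugt-32. ugt-54 had 9.82, 9.75 and 11.6 CPM in R04E5.10 libraries, against 6.14, 7.05 and 6.13 CPM in L4440_RM (0.69 ± 0.14, adjusted p = 0.0119), and its call was lost without R04E5.10 replicate 3 (adjusted p = 0.0732) or L4440_RM replicate 1 (0.0666) or 3 (0.0587). ugt-31 was at 0.55 ± 0.13 (adjusted p = 0.0415), lost without R04E5.10 replicate 1 (0.195) or 3 (0.088) or L4440_RM replicate 1 (0.183) or 2 (0.102), and at an adjusted p of 0.0543 with the replicate block. ugt-32 had 4.28, 2.00 and 2.12 CPM in R04E5.10 and 0.931, 0.752 and 0.2905 CPM in L4440_RM (2.08 ± 0.44, adjusted p = 0.0219), and its level rested in part on R04E5.10 replicate 1, without which the log2 fold change was 1.64 (adjusted p = 0.0887). Its call was also lost without L4440_RM replicate 2 (adjusted p = 0.0537) or 3 (0.0775). The count was 3 without R04E5.10 replicate 1 or without L4440_RM replicate 3, and 9, with 3 higher and 6 lower, without the 2 RM libraries that lie apart. The shares of all genes called in those runs are not given.

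M04C9.5 and R04E5.10 have separate control libraries, so their calls can be set side by side. All 6 members called in R04E5.10 were called in the same direction in M04C9.5, which is 100% of the R04E5.10 list and 24.0% of the 25 in M04C9.5. Over all genes tested in both, 333 were shared in the same direction, 92.8% of 359 in R04E5.10 and 10.4% of 3213 in M04C9.5. On the R04E5.10 side the share of the members is near that of all genes, and on the M04C9.5 side it is higher, a difference that was not tested. ugt-22 was at -0.67 in R04E5.10 and -0.75 in M04C9.5, ugt-53 at -1.15 and -0.91, and ugt-21 at -0.73 and -0.97. ugt-54 was at 0.69 in R04E5.10 and 0.52 in M04C9.5, ugt-31 at 0.55 and 0.43, and ugt-32 at 2.08 and 2.15. ugt-44 and ugt-62, which fell in M04C9.5, were at -0.39 ± 0.13 (adjusted p = 0.141) and -0.34 ± 0.14 (adjusted p = 0.278) in R04E5.10, with libraries overlapping the controls. Of 39 glutathione S-transferases tested in R04E5.10 none passed the threshold. gst-4 (-0.70, adjusted p = 0.0547), gst-10 (-0.37, 0.138) and gst-13 (-0.35, 0.323), which fell in M04C9.5, had the same direction in R04E5.10. The other readouts of SKN-1 were at 0.064 for gcs-1, -0.176 for gst-12 and 0.165 for sdz-8 in R04E5.10. fmo-2 rose there as well, with 14.2 ± 2.51 CPM in R04E5.10 and 2.38 ± 1.15 CPM in L4440_RM (SD, n = 3 each; adjusted p = 0.00436).

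**Figure D4:**
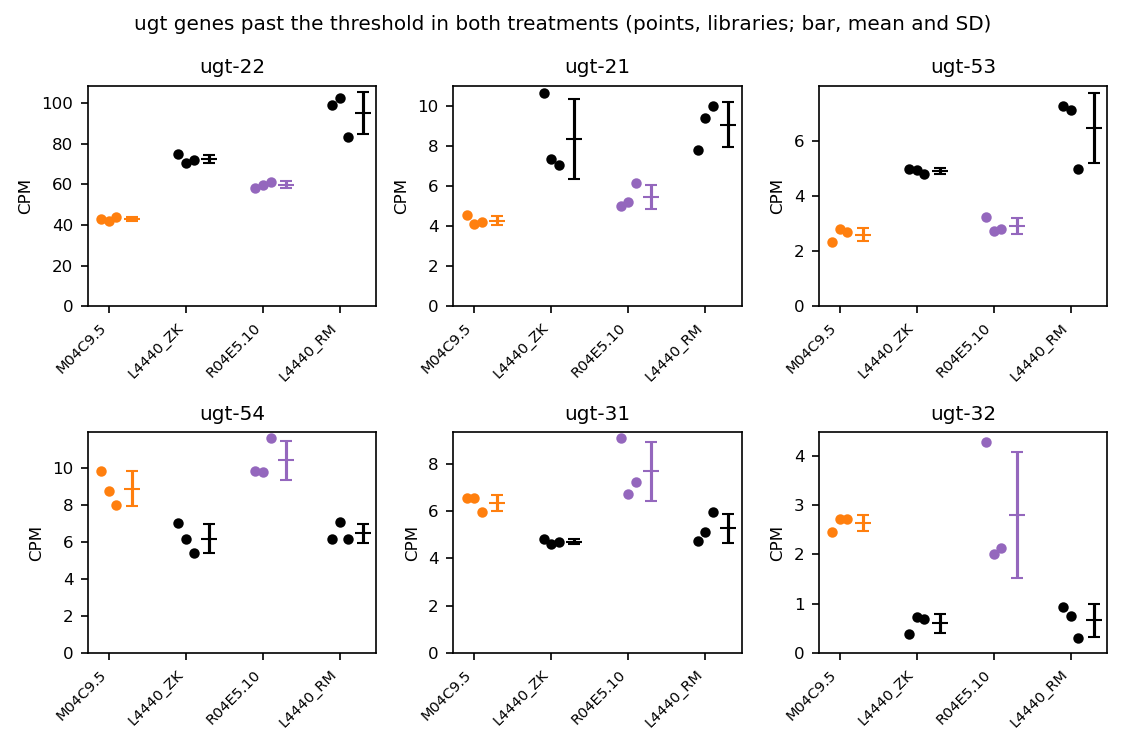
CPM of 6 ugt genes, from 0, in the libraries labelled M04C9.5 (orange) and R04E5.10 (purple), each left of its own L4440 group (black); points are the 3 libraries, bars the mean and SD. ugt-22 lies at 42.0 to 44.1 in M04C9.5 against 70.5 to 74.6, and at 58.2 to 61.3 in R04E5.10 against 83.0 to 102.

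In ZK795.1 libraries 5 of 60 members rose and none of the 60 fell, where 1.99% of all genes passed the threshold, 1.31% higher and 0.679% lower. The members' median was 0.074, and that of all genes 0.017. ugt-44 had 90.7, 105 and 104.5 CPM in ZK795.1 libraries, against 76.1, 73.65 and 71.2 CPM in L4440_ZK (0.44 ± 0.07, adjusted p = 0.000296). ugt-43 had 9.375, 9.01 and 9.44 CPM in ZK795.1 and 6.39, 7.23 and 6.45 CPM in L4440_ZK (0.48 ± 0.09, adjusted p = 0.00183). ugt-22 had 85.3, 86.1 and 90.2 CPM in ZK795.1 and 74.6, 70.5 and 72.1 CPM in L4440_ZK (0.27 ± 0.06, adjusted p = 0.00357). All 3 genes lay above every control library, and their calls held without each library in turn. ugt-6 (0.55 ± 0.12, adjusted p = 0.00443) lost its call without ZK795.1 replicate 1 (adjusted p = 0.0659), and ugt-51 (0.515 ± 0.14, adjusted p = 0.0434) lost it without any 1 of the 6 libraries. Without ZK795.1 replicate 1 the count was 3. None of the 5 passed in the fit of all 30 libraries or with all 6 L4440 libraries as control.

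**Figure D5:**
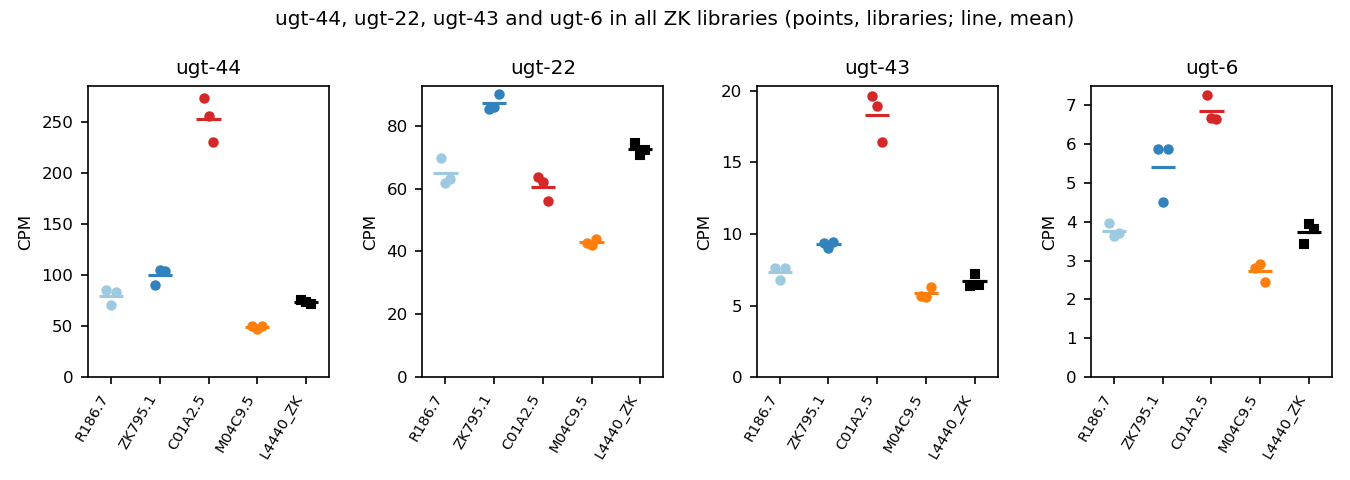
CPM, from 0, of ugt-44, ugt-22, ugt-43 and ugt-6 in the 5 ZK groups, treatments left of L4440_ZK; points are libraries and lines means. ZK795.1 lies above L4440_ZK for all 4 genes, C01A2.5 is highest for ugt-44 (231 to 274) and M04C9.5 is lowest for ugt-44 (47.1 to 49.7) and ugt-22 (42.0 to 44.1).

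In ZK795.1, 4 of 36 glutathione S-transferases and 6 of 66 cytochrome P450 genes rose and 0 of either fell. gst-4 stood at 17.2 ± 0.771 CPM in ZK795.1 and 13.2 ± 0.295 CPM in L4440_ZK (SD, n = 3 each; adjusted p = 0.00588), and cyp-35B1 at 27.7 ± 3.99 CPM and 8.47 ± 1.28 CPM in the same order (1.72, adjusted p = 1.32e-12). gst-29 (0.92, adjusted p = 7.79e-05) and cyp-35B2 (1.56, adjusted p = 0.0095) rose too, both by more on the log2 scale than the 5 ugt genes. Of the 18 regulators 1 was called, nhr-114 (0.33, adjusted p = 0.0283). Of 8 intestinal markers 1 rose and 2 fell.

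R186.7 libraries gave 1 called member, ugt-24, where 2.55% of all genes passed the threshold, 1.86% higher and 0.691% lower, and the median was 0.039 over members and 0.008 over all genes. It had 3.755, 3.14 and 3.39 CPM in R186.7 libraries, against 2.19, 2.64 and 2.36 CPM in L4440_ZK (0.52 ± 0.13, adjusted p = 0.0235). The groups did not overlap, but the call was lost without R186.7 replicate 1 (adjusted p = 0.131), R186.7 replicate 3 (0.0546), L4440_ZK replicate 1 (0.0968) or L4440_ZK replicate 3 (0.124). The count of members was 0 without R186.7 replicate 1, L4440_ZK replicate 1 or L4440_ZK replicate 3, and 0 in the fit of all 30 libraries. ugt-53 was below all controls as well, at -0.47 ± 0.13, and missed the threshold (adjusted p = 0.0504).

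F55H2.6 libraries gave 3 members higher and 1 lower, where 18.9% of all genes passed the threshold, 10.4% higher and 8.54% lower. The share of members called was 6.67%. The members' median was 0.165, and that of all genes 0.039. ugt-54 had 11.6, 9.38 and 11.6 CPM in F55H2.6 libraries, against 6.14, 7.05 and 6.13 CPM in L4440_RM (0.75 ± 0.14, adjusted p = 0.00165), and this call held in every alternative run. ugt-8 had 7.42, 5.16 and 9.42 CPM in F55H2.6 and 4.28, 4.23 and 4.56 CPM in L4440_RM (0.75 ± 0.21, adjusted p = 0.0196), and was at 0.54 (adjusted p = 0.124) without F55H2.6 replicate 3, with its call also lost without L4440_RM replicate 1 (0.0669) or 2 (0.0506). ugt-29 (0.27 ± 0.09, adjusted p = 0.0346) rose and ugt-53 (-0.63 ± 0.18, adjusted p = 0.0233) fell. Without F55H2.6 replicate 2 or 3 or L4440_RM replicate 1 or 2 both calls were lost, and that of ugt-29 was also lost without L4440_RM replicate 3 (adjusted p = 0.0942). The count was 1 without F55H2.6 replicate 3 or L4440_RM replicate 2, 2 without L4440_RM replicate 1, and 5, with 2 higher and 3 lower, without the 2 RM libraries that lie apart. With all 6 L4440 libraries as control it was 21, of which 20 were higher, and in the fit of all 30 libraries 8. The shares of all genes called in these alternative runs are not given, so the counts cannot be set beside 18.9%. Of 18 regulators 4 rose in F55H2.6, pqm-1 (0.51), nhr-48 (0.49), nhr-8 (0.28) and ahr-1 (0.71), and 1 fell, xrep-4 (-0.19, adjusted p = 0.0313). Of 10 oocyte and eggshell markers 8 fell, and the 10 summed to 9725 to 11820 CPM in F55H2.6 and 13180 to 14450 CPM in L4440_RM. The part of that shift in the ugt values was not tested.

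F25H2.5 libraries gave 3 members higher and 1 lower, where 8.65% of all genes passed the threshold, 5.26% higher and 3.39% lower. The members' median was 0.084, and that of all genes -0.003. ugt-28 had 15.95, 16.3 and 15.0 CPM in F25H2.5 libraries, against 12.3, 12.5 and 11.6 CPM in L4440_RM (0.38 ± 0.10, adjusted p = 0.0244). ugt-54 had 9.315, 8.91 and 9.28 CPM in F25H2.5 and 6.14, 7.05 and 6.13 CPM in L4440_RM (0.51 ± 0.14, adjusted p = 0.03). ugt-45 was at 0.42 ± 0.12 (adjusted p = 0.0427). ugt-65, the member lower in F25H2.5 (-1.33 ± 0.38, adjusted p = 0.0437), had 0.663, 0.843 and 0.619 CPM in F25H2.5, against 1.835, 2.695 and 0.813 CPM in L4440_RM, so the groups overlapped. None of the 4 calls held without each library in turn. The count was 0 without F25H2.5 replicate 1 or 2 and 1 without F25H2.5 replicate 3 or L4440_RM replicate 1 or 2. Without the 2 RM libraries that lie apart, 1 member was higher and 4 were lower, and in the fit of all 30 libraries 4 were higher and 3 lower. For these alternative runs the share of all genes called is not given.

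F26D12.1 libraries gave 0 called members with edgeR's quasi-likelihood test, where 0.00633% of all genes passed the threshold. DESeq2 also called 0, and 3 members had an unadjusted p under 0.05. Log2 fold changes of members lay between -0.62 and 0.51, and 57 of 60 members had libraries that overlapped the controls. The share of all genes that overlapped is not given. The count was 0 too without the 2 RM libraries that lie apart.

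The L4440 libraries of both prefixes, which have no target, were compared as well. In L4440_RM over L4440_ZK 22 members of 60 were higher and 5 lower, where 43.8% of all genes passed the threshold, 23.9% higher and 19.9% lower. The share of members called is close to that background. The members' median was 0.23, and that of all genes 0.078. ugt-65 had 1.77, 2.6 and 0.795 CPM in L4440_RM libraries, against 0.238, 0.249 and 0.145 CPM in L4440_ZK (3.03 ± 0.41, adjusted p = 2.88e-06). ugt-9 (2.16 ± 0.39) and ugt-57 (2.14 ± 0.38) were higher as well. Among abundant members ugt-22 had 95.3, 98.8 and 81.2 CPM in L4440_RM and 77.4, 73.3 and 73.3 CPM in L4440_ZK (0.30 ± 0.08, adjusted p = 0.00413), and it lost this call without L4440_RM replicate 2 (adjusted p = 0.0639). ugt-64 had 20.9, 20.4 and 20.6 CPM in L4440_RM and 38.6, 30.7 and 26.4 CPM in L4440_ZK (-0.63 ± 0.13, adjusted p = 0.000264). ugt-14 (-0.88 ± 0.21), ugt-28 (-0.405 ± 0.10), ugt-52 (-0.51 ± 0.17) and ugt-63 (-0.38 ± 0.14) were lower. Of the 27 calls 11 held without each library in turn, and the count was 17 without L4440_RM replicate 1. Muscle markers summed to 838 to 1112 CPM in L4440_RM and 586 to 644 CPM in L4440_ZK, and 5 of 6 epidermal markers were higher. The 8 intestinal markers, 4 called higher and 1 lower, summed to 984 to 1140 CPM in L4440_RM and 680 to 764 CPM in L4440_ZK. Germline markers summed to 1665 to 1762 CPM in L4440_RM and 2112 to 2213 CPM in L4440_ZK, and oocyte and eggshell markers to 13180 to 14450 CPM and 15360 to 16920 CPM in the same order. The 31 msp genes summed to 29.6 to 47.1 CPM in L4440_RM and 2.06 to 7.33 CPM in L4440_ZK. The part of these shifts in the ugt values was not tested. Prefix and any difference in handling cannot be told apart.

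Across treatments, ugt-54 changed most often among the 60 tested members. It rose in C01A2.5 (0.87 ± 0.10), M04C9.5 (0.52), F25H2.5 (0.51), F55H2.6 (0.75) and R04E5.10 (0.69), and in each of these its 3 treated libraries lay above the 3 controls. In R186.7 (0.12 ± 0.11), ZK795.1 (-0.09 ± 0.11) and F26D12.1 (0.32 ± 0.14) it missed the threshold with overlapping libraries. Within a prefix, each treatment in which ugt-54 rose was also set against each in which it missed the threshold. These pairs were picked by calls against shared L4440 libraries in the same fit, which makes a difference likelier, so passing adds no support. All 4 such ZK differences passed the threshold. They were -0.40 for R186.7 minus M04C9.5 (adjusted p = 0.00468, with 17.0% of all genes past the threshold), -0.61 for ZK795.1 minus M04C9.5 (3.29e-05, 24.6%), -0.75 for R186.7 minus C01A2.5 (4.33e-08, 86.7%) and -0.96 for ZK795.1 minus C01A2.5 (4.25e-10, 87.8%). Of the 3 such RM differences 1 passed, F55H2.6 minus F26D12.1 (0.43, adjusted p = 0.0302, with 22.9% of all genes past the threshold). R04E5.10 minus F26D12.1 (0.37, adjusted p = 0.148, 3.22%) and F25H2.5 minus F26D12.1 (0.19, adjusted p = 0.38, 11.5%) did not. ugt-53 fell in C01A2.5, M04C9.5, F55H2.6 and R04E5.10 and rose in none of the 8 treatments. ugt-21 fell in C01A2.5, M04C9.5 and R04E5.10, ugt-31 and ugt-32 rose in the same 3, and ugt-8 rose in C01A2.5, M04C9.5 and F55H2.6. Some of these calls were lost without single libraries. They were those of ugt-54 in F25H2.5 and R04E5.10, ugt-53 in F55H2.6 and ugt-8 in M04C9.5 and F55H2.6. Those of ugt-21, ugt-31 and ugt-32 in R04E5.10 were lost in this way too. The share of all genes changed in as many treatments is not given. Treatments of 1 prefix share their control libraries, so calls are not independent within a prefix.

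In different treatments 14 members changed in both directions. The share of all genes that did so is not given, and C01A2.5 called 88.1% and M04C9.5 19.8% of all genes. For 10 members that rose in C01A2.5 and fell in M04C9.5 the difference between these treatments passed the threshold, as it did for 87.0% of all genes. The differences given here are for members with opposite calls against the same L4440_ZK libraries. Passing was therefore nearly fixed in advance and adds no support to the calls. ugt-22 rose in ZK795.1 and fell in C01A2.5, M04C9.5 and R04E5.10, and ZK795.1 minus M04C9.5 was 1.02 ± 0.06 (adjusted p = 6.78e-15), where 24.6% of all genes differed. ZK795.1 minus C01A2.5 was 0.525 for ugt-22, where 87.8% of all genes differed. Its exons overlap those of srz-29 on the opposite strand, and the library kit does not mark strand. srz-29 averaged at most 0.0824 CPM in any group. ugt-25 overlaps mlst-8 in the same way, and mlst-8, at 85.8 CPM in L4440_ZK, fell by 1.13 on the log2 scale in C01A2.5 while ugt-25 rose.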

How the data were processed

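Counts of reads per gene in 30 libraries were used as deposited by the authors. The submitters' processing notes name bcl2fastq 1.8.4, STAR 2.4.1d, featureCounts 1.4.6-p4 and the build WBcel235, without settings. The TruSeq RNA v2 kit was used per the labels, which does not mark strand. How reads shared by similar genes were counted is not given in the sources used here. An RPKM table deposited by the authors was not used. Members, coordinates and exon lengths come from the Ensembl annotation of WBcel235.

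The members and gene lists were chosen with earlier results of these data known. Low counts were removed with filterByExpr, libraries scaled by TMM, and robust quasi-likelihood models fitted with edgeR 4.0.16 in R 4.3.3 to the 15 libraries of a prefix with 5 group means (16495 genes in ZK, 15795 in RM), or to all 30 libraries for L4440_RM against L4440_ZK (16867 genes). Benjamini-Hochberg adjustment ran over all genes of a comparison, with a threshold of 0.05. CPM in the comparisons are on the scale of their fit; levels per kb and sums use all 30 libraries. On simulated counts with fold changes of 1.5 and 2, 57% and 74% of changed genes were recovered in ZK and 38% and 69% in RM, low-count genes included. There 100 genes changed at each fold and the rest of the group stayed equal to L4440. In C01A2.5 88.1% of all genes changed, so these rates are not read for that comparison. Values were printed for up to 8 called members per direction with the smallest adjusted p, all treated libraries on one side of the controls and a mean of at least 1 CPM, the 10 highest members, those called in at least 4 treatments or in both directions, runs of at least 3 neighbours, ugt-22, and up to 4 genes per list. ugt-43 as a neighbour of ugt-44 and some low members were named after their values were seen. Alternatives were relative log expression factors, library totals, no filter, DESeq2 1.42.0, other sets of libraries, a replicate block, all 6 L4440 libraries as control and each library left out. Libraries of a group carry a running title number whose order named the replicates. Deviations of same-numbered libraries from their group means correlated above 0.1 in every pair only for R186.7 (0.171 to 0.286) and F26D12.1 (0.174 to 0.696), where the block changed no count. The fit without the 2 RM libraries that lie apart was added after the data were seen. The planned search of member sequences was not run, and no sequence is printed.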

Additional observations from a re-analysis of the deposited data

Results flagged for a closer look

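In 14 cases a member rose in 1 ZK treatment and fell in another. The difference between the treatments had an adjusted p under 0.05 in edgeR's quasi-likelihood test. The cases were picked for opposite calls in the same fit, which makes such a difference nearly certain, so it adds no support. C01A2.5 minus M04C9.5 gave 10 of them, and 87.0% of all genes differed between these treatments. The log2 differences were 2.375 for ugt-44, 1.863 for ugt-1, 1.488 for ugt-14, 1.33 for ugt-6, 1.323 for ugt-11, 1.279 for ugt-62, 1.194 for ugt-63, 1.176 for ugt-19, 1.05 for ugt-25 and 0.761 for ugt-17. In each of these the gene rose in C01A2.5 and fell in the libraries labelled M04C9.5.

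ZK795.1 minus M04C9.5 gave 1.035 for ugt-44, 1.022 for ugt-22 and 0.999 for ugt-6, where 24.6% of all genes differed. ZK795.1 minus C01A2.5 gave 0.525 for ugt-22, where 87.8% of all genes differed. Both treatments of a pair share the L4440_ZK libraries, which drop out of the difference.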

How the results depend on the processing

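Members called moved by over 1.5 times as follows. R186.7 gave 1, against 3 with relative log expression factors, 2 with no filter, 2 with DESeq2, 2 in the fit of the 6 libraries, 2 without the C01A2.5 libraries, 2 with 6 L4440 controls and 0 in the fit of all 30 libraries. ZK795.1 gave 5, against 0 in the fit of all 30 and 0 with 6 L4440 controls. The libraries labelled M04C9.5 gave 25, against 9 in the fit of all 30. F25H2.5 gave 4, against 7 in the fit of all 30. F55H2.6 gave 4, against 2 in the fit of the 6 libraries, 8 in the fit of all 30 and 21 with 6 L4440 controls. R04E5.10 gave 6, against 10 with 6 L4440 controls. The cause was not tested. The shares of all genes called in the alternative runs are not given, so the counts are not read as a trait of the family. Leaving out each library in turn gave 49 to 53 in C01A2.5, 17 to 24 in M04C9.5, 3 to 4 in ZK795.1, 0 to 1 in R186.7, 0 to 3 in F25H2.5, 1 to 5 in F55H2.6, 3 to 6 in R04E5.10, 0 to 0 in F26D12.1 and 17 to 29 in L4440_RM over L4440_ZK.

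Of the member values, 6 changed sign. In C01A2.5 these were ugt-5 with DESeq2 (-0.01) and, with library totals, ugt-58 (0.118) and ugt-61 (0.064). Of these 3, ugt-58 passed the threshold in the new direction (adjusted p = 0.0402 in edgeR's quasi-likelihood test). In M04C9.5, with 6 L4440 controls, they were ugt-9 (-0.617), ugt-47 (-0.06) and ugt-57 (-0.321). Of the other alternative values of called members, 1468 kept their side of the threshold and 267 did not.

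The replicate block used the order of title numbers, which no label ties to a shared culture or day. In the 6 treatments other than R186.7 and F26D12.1, at least 1 pair of same-numbered libraries correlated below 0.1. With the block, 1 member was called in R186.7, 4 in ZK795.1, 51 in C01A2.5, 25 in M04C9.5, 5 in F25H2.5, 5 in F55H2.6, 6 in R04E5.10 and 0 in F26D12.1. The block ended 3 calls, those of ugt-51 in ZK795.1 (adjusted p = 0.0626), ugt-61 in C01A2.5 (0.0505) and ugt-31 in R04E5.10 (0.0543). Members with few counts are limited by depth: 7 could not be tested.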
